A study of Mus musculus with 48 samples.

Results

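The metabotropic glutamate receptors were examined in mouse cortical neuron cultures that had been exposed to NMDA. The 6 genes considered were Grm2, Grm3, Grm4, Grm5, Grm7 and Grm8, and their probes were every array probe that the platform annotation names with one of these symbols. This gave 10 of the 46632 probes, for 5 of the 6 genes, among 17711 genes that the annotation names. No probe was matched to Grm5, which is not analysed here.

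Expression was read on 48 Illumina MouseWG-6 arrays that came on 8 chips of 6. Cultures from CD-1 mice were grown for 7 days, pre-treated for 1 h with a compound or a control, switched for 1 h to a hypotonic salt solution with NMDA, and left for 16 h with the compound or control put back. Every array, controls included, comes from cells that saw NMDA, so no unexposed level is analysed here. The controls were 5 mock cultures with water and 5 vehicle cultures with DMSO, joined as 10 controls. The compounds were labelled with water, DMSO or ethanol as solvent, and no control had ethanol. Of the compounds labelled protective, 4 carry the mechanism label NMDAR antagonist (ifenprodil, MK-801, riluzole and memantine, 1 array each) and 10 carry another mechanism. A further 6 arrays had a compound labelled non-protective, and 18 arrays had a compound that the labels put in neither class. The labels also give each compound a protection ratio, which is 1 for the controls, 1.4 to 1.87 for the antagonists, 1.4 to 2.76 for the other protective compounds and 0.61 to 0.98 for the non-protective ones. No label states the doses. The labels do not say whether arrays of a group came from separate cultures, so the p-values measure the spread between these arrays. In the compound groups that spread mixes differences between compounds with differences between arrays, and the latter may be technical.

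Metabotropic glutamate receptors are G protein coupled receptors that sense glutamate, the transmitter that also opens the NMDA receptor channel. The family falls into groups by sequence and coupling. Grm2 and Grm3 encode the group II receptors and Grm4, Grm7 and Grm8 encode group III receptors, all of which act through Gi/o proteins, lower cyclic AMP and commonly sit on or near nerve terminals, where they reduce transmitter release. Grm5 encodes a group I receptor, which acts through Gq proteins and phospholipase C on the postsynaptic side. Grm3 is known for its expression in astrocytes as well as neurons, and Grm7 for its place in the active zone of terminals.

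RefSeq promoters (build GRCm38.p6, 250 bases before to 50 after a transcript start) were held for 4 of the 6 genes, 7 promoters in all. The 3 below belong to genes that were measurable on the arrays. They are shown because the levels of these genes moved together, as described further on, to set their start regions side by side. Capitals mark exact matches, on either strand, to the left arm (TTCAGCACC) or the beginning of the right arm (GGACAG) of the RE1 element, which is bound by the neuronal gene repressor REST, and to the GC box GGGCGG. Each sequence runs 5′ to 3′ along the gene.
Grm2, chr9:106656060-106656359, minus strand: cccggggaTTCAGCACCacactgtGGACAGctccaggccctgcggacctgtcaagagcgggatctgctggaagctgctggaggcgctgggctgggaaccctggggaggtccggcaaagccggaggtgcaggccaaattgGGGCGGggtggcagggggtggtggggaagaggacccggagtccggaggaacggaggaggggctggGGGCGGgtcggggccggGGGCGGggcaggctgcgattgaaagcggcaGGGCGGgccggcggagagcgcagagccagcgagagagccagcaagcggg
Grm7, chr6:110645262-110645561, plus strand: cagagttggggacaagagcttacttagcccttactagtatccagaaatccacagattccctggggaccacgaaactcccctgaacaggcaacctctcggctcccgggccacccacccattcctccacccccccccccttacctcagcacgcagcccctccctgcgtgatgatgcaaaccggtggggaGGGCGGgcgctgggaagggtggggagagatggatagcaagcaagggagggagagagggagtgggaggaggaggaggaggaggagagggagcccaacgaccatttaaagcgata
Grm8, chr6:28135097-28135396, minus strand: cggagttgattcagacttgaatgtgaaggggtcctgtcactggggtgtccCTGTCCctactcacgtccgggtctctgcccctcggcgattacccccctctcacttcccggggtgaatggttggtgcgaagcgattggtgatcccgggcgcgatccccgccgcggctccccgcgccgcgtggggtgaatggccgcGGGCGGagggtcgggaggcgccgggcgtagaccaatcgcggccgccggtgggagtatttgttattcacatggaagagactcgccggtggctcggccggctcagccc
The Grm2 promoter holds both RE1 arms in the same direction, 242 and 226 bases before the start and separated by 7 bases, a spacing wider than that of the canonical element. The left arm is in 0.371% and the right arm in 22.2% of the 32851 promoters of the table, and both arms on 1 strand with this spacing are in 2 of them. The spacing was chosen after the Grm2 sequence had been read, so these shares describe it and test nothing. The left arm was absent from the other 6 promoters of these genes. The GC box, in 35.7% of all promoters, occurs 4 times in the Grm2 promoter and 1 time in each of the other 2 shown, and no match to one of these motifs overlaps a match to another. The GC content is 72.0% for Grm2, 61% for Grm7 and 67% for this Grm8 start, with a median of 52.7% over the table. The Grm8 starts that are not shown had 0 GC boxes and GC contents of 43.3% and 54.0%. The Grm7 start that is not shown had 1 GC box and 66.7%. Which start these cultures used was not tested. The cAMP response element TGACGTCA, in 1.79% of promoters, was in none of the 7.

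Arrays had median signals of 36.1 to 124, and 26.3% to 39% of their probes were detected. A probe is called detected here when its detection p, the share of negative control beads that were brighter, is under 0.01. All 20 neuronal markers but Nefl were tested, and 17 of the 20 were detected on all 48 arrays. Astrocyte markers were also present, with 8 of 9 detected on every array, as were markers of dividing cells, with 6 of 8. Oligodendrocyte lineage markers were detected on every array for 6 of 9, and microglial markers for 4 of 8. Of the endothelial, mural and fibroblast markers 5 of 10 were detected on no array, among them Pecam1 and Cldn5. Others of that list were detected, Acta2 on 48 arrays, Pdgfrb on 41, Dcn on 35, Col1a1 on 8 and Rgs5 on 4. The vehicle control on chip 6 stood apart from the other 9 controls. Its neuronal marker score, the mean over markers of the log2 level less its average over all arrays, was 0.567, where the other controls lay between -0.858 and -0.282 and the antagonists between 0.58 and 1.228.

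Of the 10 probes, 4 could be followed. One probe each of Grm4, Grm8, Grm7 and Grm2 was detected on 44, 38, 28 and 11 of the 48 arrays. These passed the requirement of detection on at least 6 arrays, as did 17815 probes in all. The other 6 probes were detected on 0 arrays. The single Grm3 probe had a lowest detection p of 0.0493 and normalized log2 intensities between 4.35 and 4.98, so Grm3 had no level distinguishable from background in any culture. The second Grm4 probe had a lowest detection p of 0.0187, and the Grm7 pair without detection had 0.0106 and 0.263. The remaining Grm8 probes had 0.093 and 0.119. For Grm4, Grm7 and Grm8 the probes of a gene therefore disagree, 1 being above background and the others not, and all values below come from the detected probe. An intensity does not compare between probes, so the genes are not ranked against each other.

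**Figure D1:**
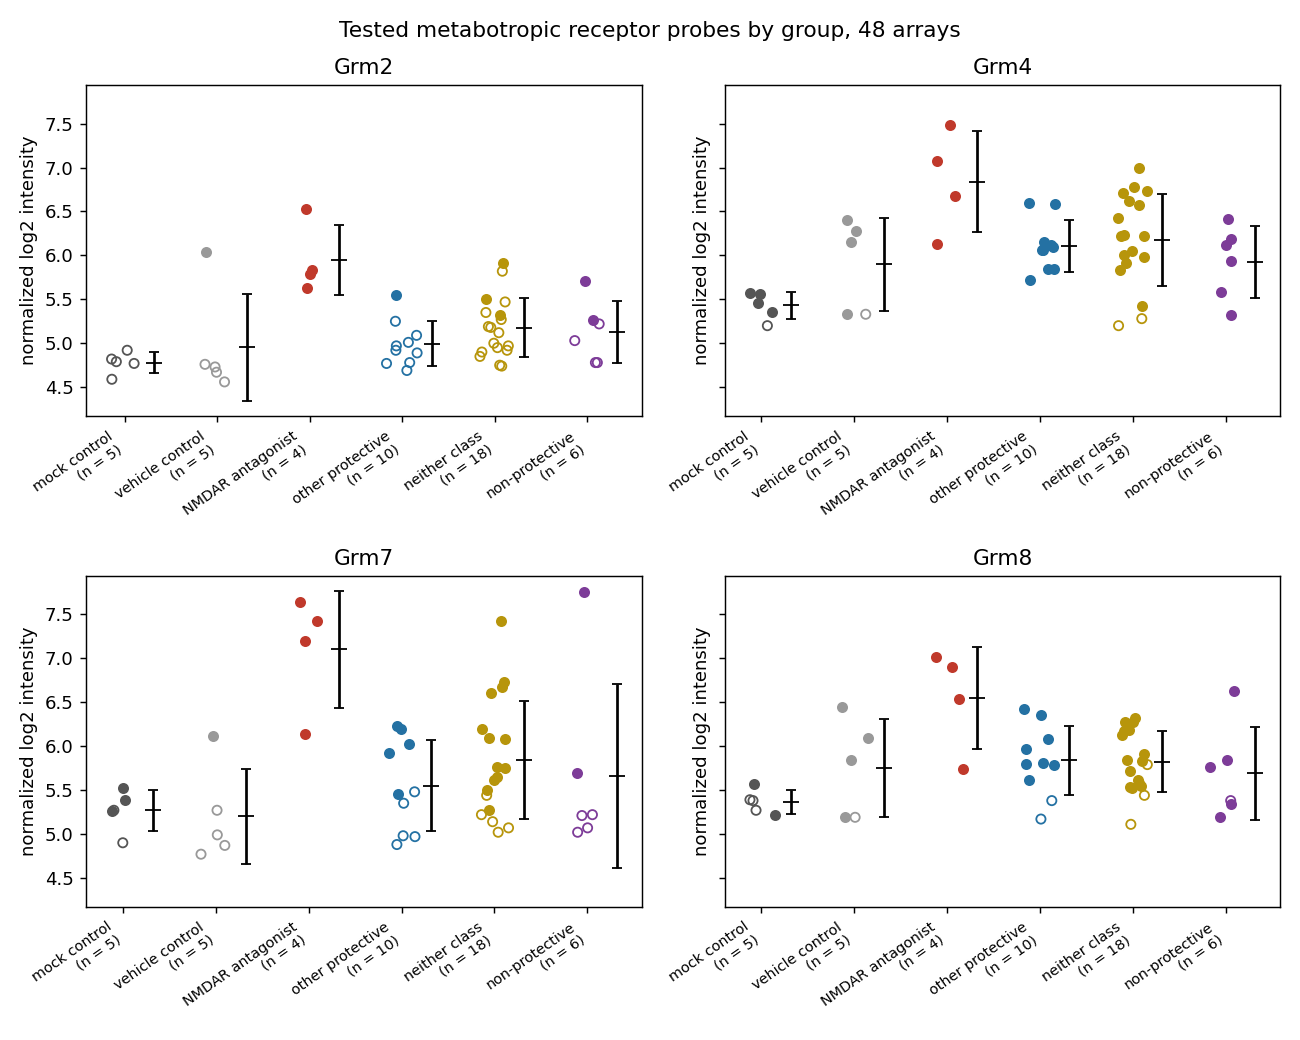
Normalized log2 intensity of the 4 tested probes on each of the 48 arrays, by group. Filled points were detected (detection p under 0.01) and open points were not; the black bars give the mean and SD of a group. The 4 antagonist arrays have the highest group mean for each gene, and only for Grm7 are all 4 above all 10 controls. The points of Grm2 are mostly open outside the antagonists, while those of Grm4 are mostly filled.

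All 4 measurable receptor genes had a higher mean with the compounds labelled NMDAR antagonist than in controls. Block of the NMDA receptor itself was not measured. Grm7, the terminal group III receptor, rose 3.65-fold, Grm4 rose 2.26-fold and Grm8 rose 1.99-fold. Grm2, detected on 1 of the 10 controls, rose at least 1.41-fold, which sets each control array no lower than its dimmest detected probe. In the controls Grm4 was detected on 8 arrays, Grm8 on 6 and Grm7 on 4. With the same floor for the controls, the folds were 3.02 for Grm7, 2.21 for Grm4 and 1.92 for Grm8. In bulk RNA a higher level per neuron and a larger share of surviving neurons cannot be told apart. The folds are on a scale where an offset of 16 was added to each corrected intensity, which understates changes near background.

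Grm7 had a normalized log2 intensity of 7.64 with ifenprodil, 7.43 with MK-801, 7.20 with riluzole and 6.14 with memantine. In the 10 controls the lowest value was 4.77, the median 5.26 and the highest 6.11. The groups did not overlap, though memantine cleared the highest control by a narrow margin and the other 3 antagonists by more than 1 log2 unit. Complete separation with all antagonists higher was found for 3.69% of all tested probes. The difference was 1.87 (SE 0.373, 95% interval 1.14 to 2.6) with an adjusted p of 0.00079 in limma.

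Grm2, a group II autoreceptor, was 6.53 with ifenprodil, 5.79 with MK-801, 5.63 with riluzole and 5.83 with memantine. Its controls ran from 4.56 through a median of 4.77 to 6.04. It was detected on all 4 antagonist arrays and on 1 of the 10 controls, the vehicle control on chip 6, which alone overlapped the antagonists; the next control was at 4.92. The difference was 1.08 (SE 0.204, adjusted p = 0.000504), with most controls at background level.

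Grm4, a group III receptor, was 7.48 with ifenprodil, 7.07 with MK-801, 6.13 with riluzole and 6.68 with memantine. Its controls ran from 5.20 through 5.51 to 6.40. Riluzole lay within the range of the controls and the other 3 antagonists above it. The difference was 1.18 (SE 0.263, adjusted p = 0.00194).

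Grm8, the remaining group III gene, was 6.90 with ifenprodil, 6.54 with MK-801, 5.74 with riluzole and 7.02 with memantine, and its controls ran from 5.19 through 5.39 to 6.44. Riluzole again lay among the controls, and memantine, the lowest antagonist for Grm7, was the highest for Grm8. The control on memantine's chip, at 6.44, was also the highest control. Over the control of its own chip memantine was 0.58 higher, where ifenprodil was 1.51 higher. The difference between antagonists and controls was 0.99 (SE 0.241, adjusted p = 0.00386).

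All 4 tested members were thus called higher, where 9.62% of all tested probes were called higher and 5.97% lower. The median difference of the members was 1.13 and that of all tested probes -0.046. On the 3 chips that held both an antagonist and a control, all 4 genes were higher with the antagonist on each chip: by 1.37 to 2.12 for Grm7, 0.79 to 1.75 for Grm2, 0.40 to 1.92 for Grm4 and 0.57 to 1.51 for Grm8. Leaving out any 1 antagonist kept all 4 calls, where 5.68% of all probes were called higher without ifenprodil, 4.8% without MK-801, 8.16% without riluzole and 9.69% without memantine. So did leaving out the vehicle control on chip 6, with 11.2% called higher, where the differences were 1.21 for Grm2, 1.26 for Grm4, 1.97 for Grm7 and 1.05 for Grm8. Against the 5 vehicle controls alone, Grm4 (0.94, adjusted p = 0.053) and Grm8 (0.80, adjusted p = 0.0728) no longer passed the threshold, with 3.99% of probes called higher. Neuronal markers moved the same way: 18 of 19 tested were higher and 0 lower with the antagonists, with a median difference of 1.46, and the markers of cell division were lower for 6 of 7. Of the astrocyte markers 2 of 9 were lower and 0 higher. Of the oligodendrocyte, microglial, mural and fibroblast markers 0 of 18 were called, and the endothelial markers Pecam1, Cldn5 and Cdh5 were not tested. The part of these shifts in the receptor differences was not tested.

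**Figure D2:**
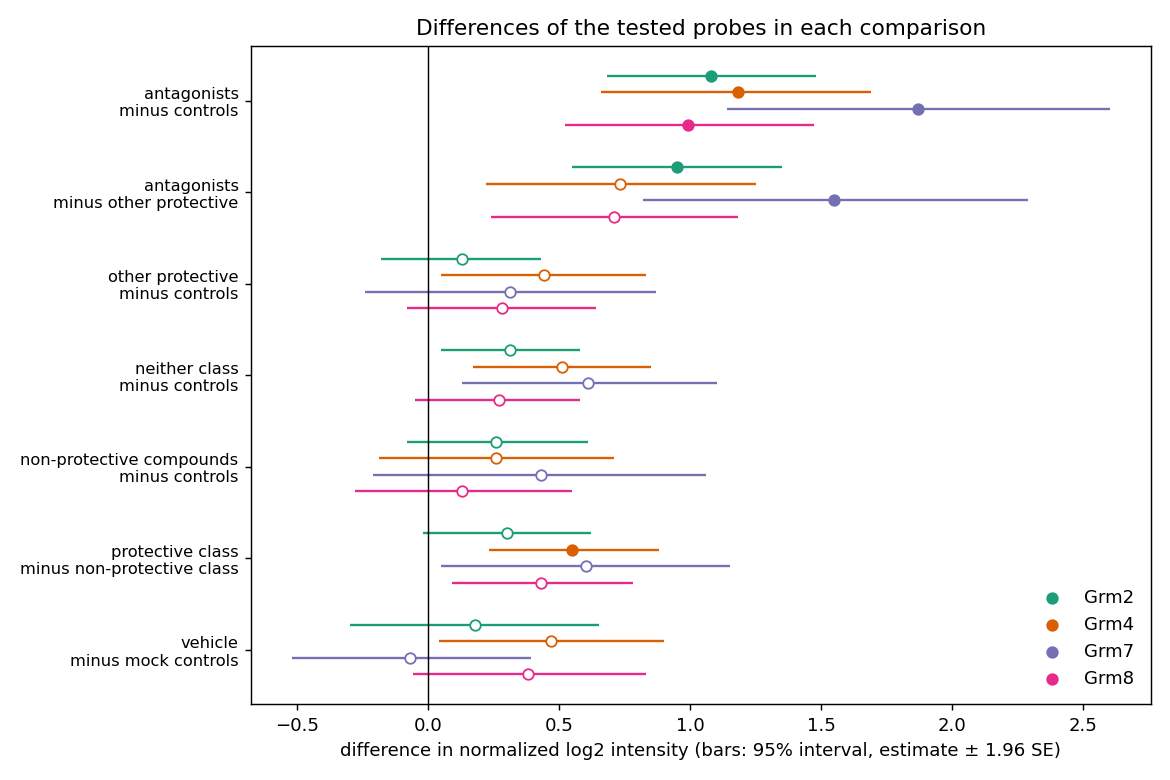
Difference in normalized log2 intensity of the 4 tested probes in 7 comparisons, with 95% intervals. Filled points passed an adjusted p of 0.05 over all 17815 probes and open points did not. The antagonists against controls give 4 filled points between 0.99 and 1.87, and the other compound groups against controls give none.

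The next comparison asks whether the antagonists differ from other compounds labelled protective. Grm7 was 2.94-fold higher with the antagonists than with the 10 other protective compounds, or 2.53-fold with the floor used above. Grm2, detected on 1 of those 10, was at least 1.32-fold higher by the same bound. For Grm7 these compounds ran from 4.88 (moxalactam) through a median of 5.47 to 6.23 (resveratrol), so that memantine at 6.14 lay inside their range and the other antagonists above it. The difference was 1.55 (SE 0.373, adjusted p = 0.0207). For Grm2 they ran from 4.69 (moxalactam) through 4.94 to 5.55 (liothyronine), below all 4 antagonists, a separation found for 2.55% of all tested probes, and the difference was 0.95 (SE 0.204, adjusted p = 0.0163).

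Grm4 (0.73, SE 0.263, adjusted p = 0.121) and Grm8 (0.71, SE 0.241, adjusted p = 0.098) did not pass. Their intervals, 0.22 to 1.25 and 0.24 to 1.18, do not show that the levels were alike. Of all tested probes 2.22% were called higher in this comparison. It rests on few arrays: without ifenprodil, or without MK-801, 0 of 17815 probes were called, and Grm7 then had a difference of 1.37 (adjusted p = 0.149) or 1.45 (adjusted p = 0.209) and Grm2 one of 0.76 (adjusted p = 0.145) or 1.00 (adjusted p = 0.166). With chip as a block all 4 members passed, where 5.53% of all probes were called higher. On the 2 chips with both kinds of compound all 4 genes were higher with the antagonist, Grm7 by 0.97 and 1.80.

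Against the controls, 0 members were called with any of the 3 groups of compounds without the antagonist label, though for compounds in neither class this depended on the fit. With the 10 other protective compounds the differences were 0.13 for Grm2, 0.44 for Grm4, 0.31 for Grm7 and 0.28 for Grm8 (adjusted p from 0.293 to 0.724), where 0.37% of probes were called higher. With the 6 non-protective compounds they were 0.26, 0.26, 0.43 and 0.13 in the same order (adjusted p from 0.956 to 0.987), where 0% were called higher. The 95% interval for Grm7 reached 0.87 in the first and 1.06 in the second, and the antagonists' estimate was 1.87. With the 18 arrays of compounds in neither class the differences were 0.31 for Grm2, 0.51 for Grm4, 0.61 for Grm7 and 0.27 for Grm8. The smallest adjusted p was that of Grm4, at 0.0532, where 4.94% of probes were called higher. Without the vehicle control on chip 6, Grm2 (0.44, adjusted p = 0.0113), Grm4 (0.59, adjusted p = 0.0198) and Grm7 (0.71, adjusted p = 0.0482) passed, with 8.63% of probes called higher. Grm4 alone also passed with chip as a block (0.43, adjusted p = 0.0234), with mock controls only (0.75, adjusted p = 0.034) and without clofibric acid (0.57, adjusted p = 0.0273), where 7.58%, 3.74% and 5.1% of probes were called higher. It also passed with median scaling over the tested probes (0.59, adjusted p = 0.04), where 1579 probes were called in either direction. These comparisons and the first share the 10 controls.

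The antagonists had the highest and the controls the lowest of the 5 group means for each of the 4 genes. The 3 groups between them had the same order for Grm7 and Grm2 and other orders for Grm4 and Grm8. For Grm7 the means were 7.10 ± 0.67 (SD, n = 4) with the antagonists, 5.85 ± 0.67 (n = 18) in neither class, 5.66 ± 1.05 (n = 6) with non-protective compounds, 5.55 ± 0.52 (n = 10) with other protective compounds and 5.23 ± 0.40 (n = 10) in controls. Below the antagonists, neighbouring groups overlapped widely. Grm4 stood at 6.84 ± 0.57 with the antagonists, 6.18 ± 0.52 in neither class, 6.11 ± 0.29 with other protective compounds, 5.92 ± 0.41 with non-protective compounds and 5.66 ± 0.44 in controls. Grm2 (5.94 ± 0.40 with the antagonists, 4.86 ± 0.42 in controls) and Grm8 (6.55 ± 0.58 and 5.56 ± 0.43) had the remaining 3 groups between 4.99 and 5.18 and between 5.69 and 5.84.

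Single arrays of compounds outside the antagonist label reached the same levels. Repeat arrays of a compound could differ widely. Grm7 was 6.73 on chip 2 and 5.44 on chip 3 with MitoPBN, and 6.20 on chip 7 and 5.22 on chip 8 with Z-VAD-FMK. A value from 1 array, as for each antagonist, therefore need not be a trait of the compound. The highest Grm7 value of all 48 arrays, 7.75, was that of 4-PPBP, a sigma receptor ligand labelled non-protective with a protection ratio of 0.89. The mock control of the same chip was at 5.52, and the other 5 non-protective compounds ran from 5.02 to 5.69. The array also had a Grm8 value of 6.63, above every control, and a neuronal marker score of 0.877. Its Grm4 value of 6.41 barely cleared the highest control, at 6.40. These values come from 1 array with no repeat. The solvent labelled for it, as for nimodipine below, was ethanol, which no control had. The part of the solvent in these values was not tested.

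Nimodipine, a blocker of L-type calcium channels labelled in neither class, had a Grm7 value of 7.42 and a Grm4 value of 6.99, both above every control, with a neuronal marker score of 1.13. Ifenprodil was the only compound above all 10 controls for all 4 genes. Above every control were 13 of 38 compound arrays for Grm4, 12 for Grm7, 4 for Grm8 and 1 for Grm2. Such counts were not made for all tested probes, so these only describe the arrays. For Grm4 the controls also differed by chip, at 6.40, 6.28 and 6.15 on chips 6, 7 and 8 and 5.20 to 5.57 on chips 1 to 5. Below every control were 3 for Grm8 (FK-506 at 5.11, indomethacin at 5.17 and flecainide at 5.19), 1 for Grm4 (clofibric acid at 5.20) and 0 for the others. As rounded here, flecainide and clofibric acid equal the lowest control of the gene. These low values are near the background of their arrays.

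**Figure D3:**
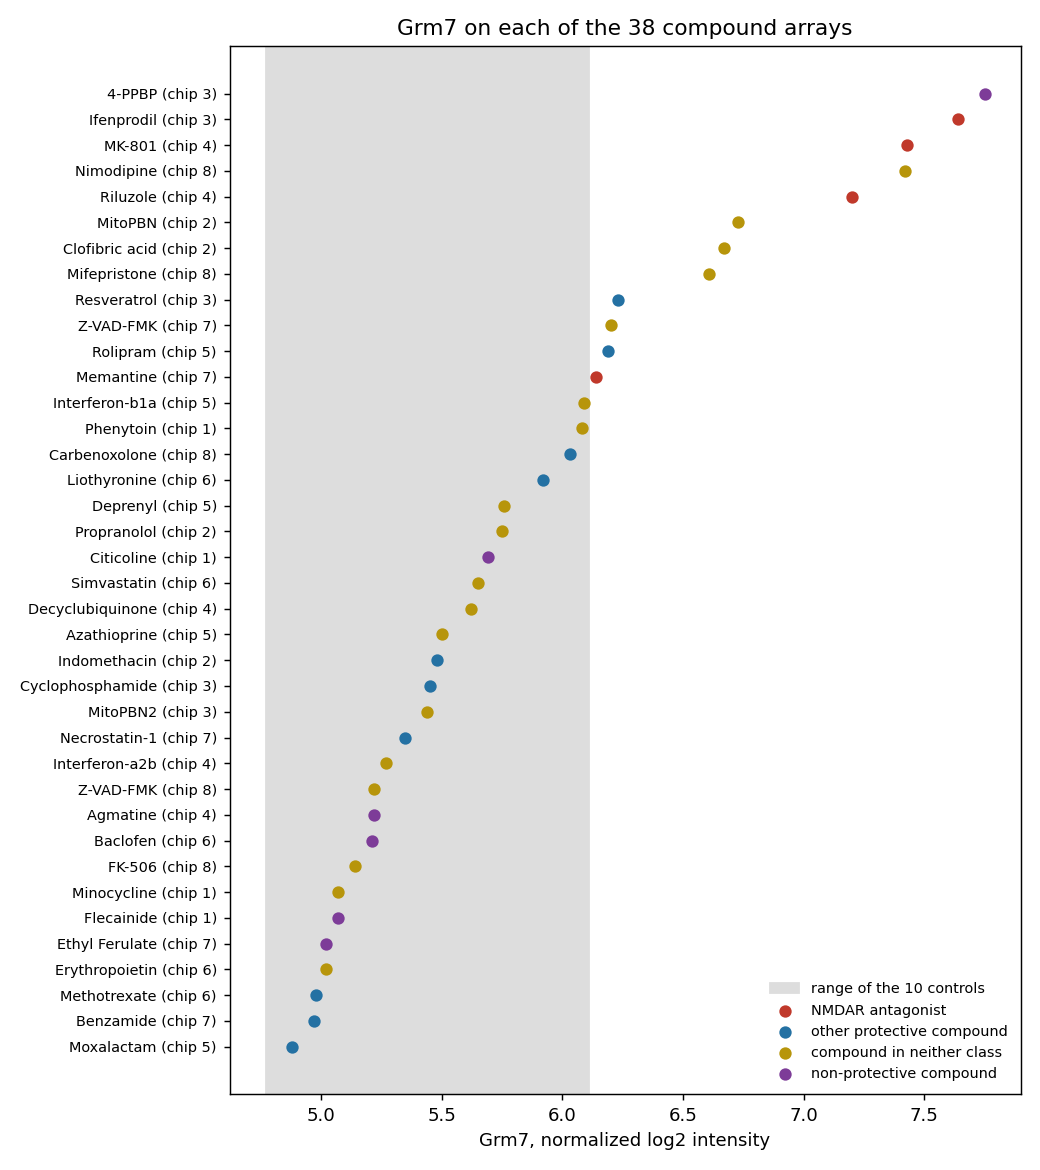
Grm7 on the 38 compound arrays, ordered by normalized log2 intensity and coloured by group; the grey band is the range of the 10 controls, 4.77 to 6.11. The 5 highest arrays are 4-PPBP (7.75), ifenprodil (7.64), MK-801 (7.43), nimodipine (7.42) and riluzole (7.20), and memantine lies just above the band at 6.14.

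Against the class label, 14 protective arrays were compared with 16 non-protective ones, the latter made up of 6 compounds and the 10 controls. Grm4 was 1.47-fold higher in the protective class (0.55, SE 0.164, adjusted p = 0.0385). It ran from 5.72 through 6.13 to 7.48 in the protective class and from 5.20 through 5.57 to 6.41 in the other. Grm7 (0.60, adjusted p = 0.161), Grm8 (0.43, adjusted p = 0.105) and Grm2 (0.30, adjusted p = 0.237) did not pass. Of all probes 4.24% were called higher. The Grm4 call was lost with chip as a block (0.46, adjusted p = 0.0919), with position as a covariate (0.63, adjusted p = 0.367), with median scaling (0.36, adjusted p = 0.146) and without the detection filter (0.55, adjusted p = 0.0905). Without the 4 antagonists the Grm4 difference was 0.35 (adjusted p = 0.272), and 0 of 17815 probes were called, members included. Without 4-PPBP the calls over all probes went from 1363 to 2718, 7.61% of probes being called higher, and 3 members passed, with Grm7 at 0.76 (adjusted p = 0.0318) and Grm8 at 0.50 (adjusted p = 0.0384).

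The size of the protection was also set against the levels, over the 36 compounds without controls (38 arrays, with repeats of a compound averaged). Per doubling of the protection ratio the log2 level changed by 0.37 for Grm4 (SE 0.197), 0.24 for Grm8 (SE 0.186), 0.23 for Grm7 (SE 0.322) and 0.10 for Grm2 (SE 0.16). None passed (adjusted p from 0.848 to 0.924). Over all 17815 probes limma called 0%, with 949 at an unadjusted p under 0.05. Rolipram, with the highest ratio of 2.76, had a Grm7 value of 6.19, and benzamide, with 2.01, had 4.97, so that protective compounds lay on both sides of the controls' highest value.

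Between the 6 mechanism labels with at least 3 compounds, 29 compounds in all, limma's F test called 0% of probes, with 807 at an unadjusted p under 0.05. The F values were 6.03 for Grm2 (unadjusted p = 0.000705), 3.33 for Grm7 (0.018), 2.19 for Grm8 (0.0848) and 2.02 for Grm4 (0.107), each with an adjusted p of 1. Outside the antagonists, with n counting arrays, the mean Grm7 value was 6.19 ± 1.18 (n = 3) with ion channel blockers, 6.11 ± 1.08 (n = 5) with receptor agonists, 5.66 ± 0.62 (n = 10, from 9 compounds) with enzyme inhibitors, 5.58 ± 0.21 (n = 3) with anti-apoptotic compounds and 5.49 ± 0.37 (n = 5) with immunomodulators. The first 2, with the widest SDs, include nimodipine (7.42) and 4-PPBP (7.75). The group names are those of the labels, and the receptor agonist label also covers propranolol and mifepristone.

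No member passed the test between vehicle and mock controls. The differences were 0.18 for Grm2, 0.47 for Grm4, -0.07 for Grm7 and 0.38 for Grm8, with adjusted p-values from 0.256 to 0.884, and 0% of probes were called, although 3559 had an unadjusted p under 0.05. The Grm4 values of the vehicle controls fell apart into 5.33 and 5.33 on chips 1 and 2 and 6.40, 6.28 and 6.15 on chips 6, 7 and 8, while the 5 mock controls, all on chips 1 to 5, ran from 5.20 to 5.57. Only chips 1 and 2 held both kinds of control. With chip as a block the difference between them rested on these 2 pairs of arrays, too few to measure a spread well. The Grm4 difference was then -0.08 and that of Grm7 was -0.41 (adjusted p = 0.0106), where 12.4% of probes were called higher and 13.6% lower. With position as a covariate Grm4 (0.85, adjusted p = 0.000329) and Grm8 (0.76, adjusted p = 0.00242) were higher in the vehicle controls, where 10% of probes were called higher and 14.1% lower. Mock controls all sat at position A of a chip and vehicle controls at A or B, whereas no antagonist sat at either. The vehicle controls at A were those on chips 6, 7 and 8, and the mock controls were on chips 1 to 5. Between the controls, the fit with position therefore cannot separate vehicle from chip. Only the 2 vehicle controls at B shared a position with any compound. The fit with position rests on them, so it cannot separate position from group for the antagonists. With position in the fit the antagonists' differences from controls were 1.27 for Grm2, 1.61 for Grm4, 2.28 for Grm7 and 1.75 for Grm8, all with an adjusted p under the threshold (0.0173 to 0.035), where 4.4% of probes were called higher.

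The 4 receptor genes varied together and with the neuronal markers over the arrays. Of 10 relations computed over the 48 arrays, Grm7 followed the neuronal marker score most closely, with Pearson's r of 0.89 and Spearman's rho of 0.86. For Grm2 r was 0.82 and rho 0.83, for Grm4 0.75 and 0.72, and for Grm8 0.69 and 0.68. Each of these r and rho had a permutation p of 1e-05, two-sided, the smallest that 100000 permutations can give, and an adjusted p of at most 2e-05. Leaving out the 2 arrays with the most extreme scores gave r of 0.86, 0.82, 0.71 and 0.66 in the same order. After centring on each chip r was 0.92, 0.83, 0.74 and 0.71, and within each of the 8 chips r was above 0 for all 4 genes, from 0.84 to 0.99 for Grm7 and from 0.07 to 0.98 for Grm4. Without the 4 antagonists, over 44 arrays, r was 0.86, 0.77, 0.70 and 0.64. All values of an array share its RNA and its normalization.

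**Figure D4:**
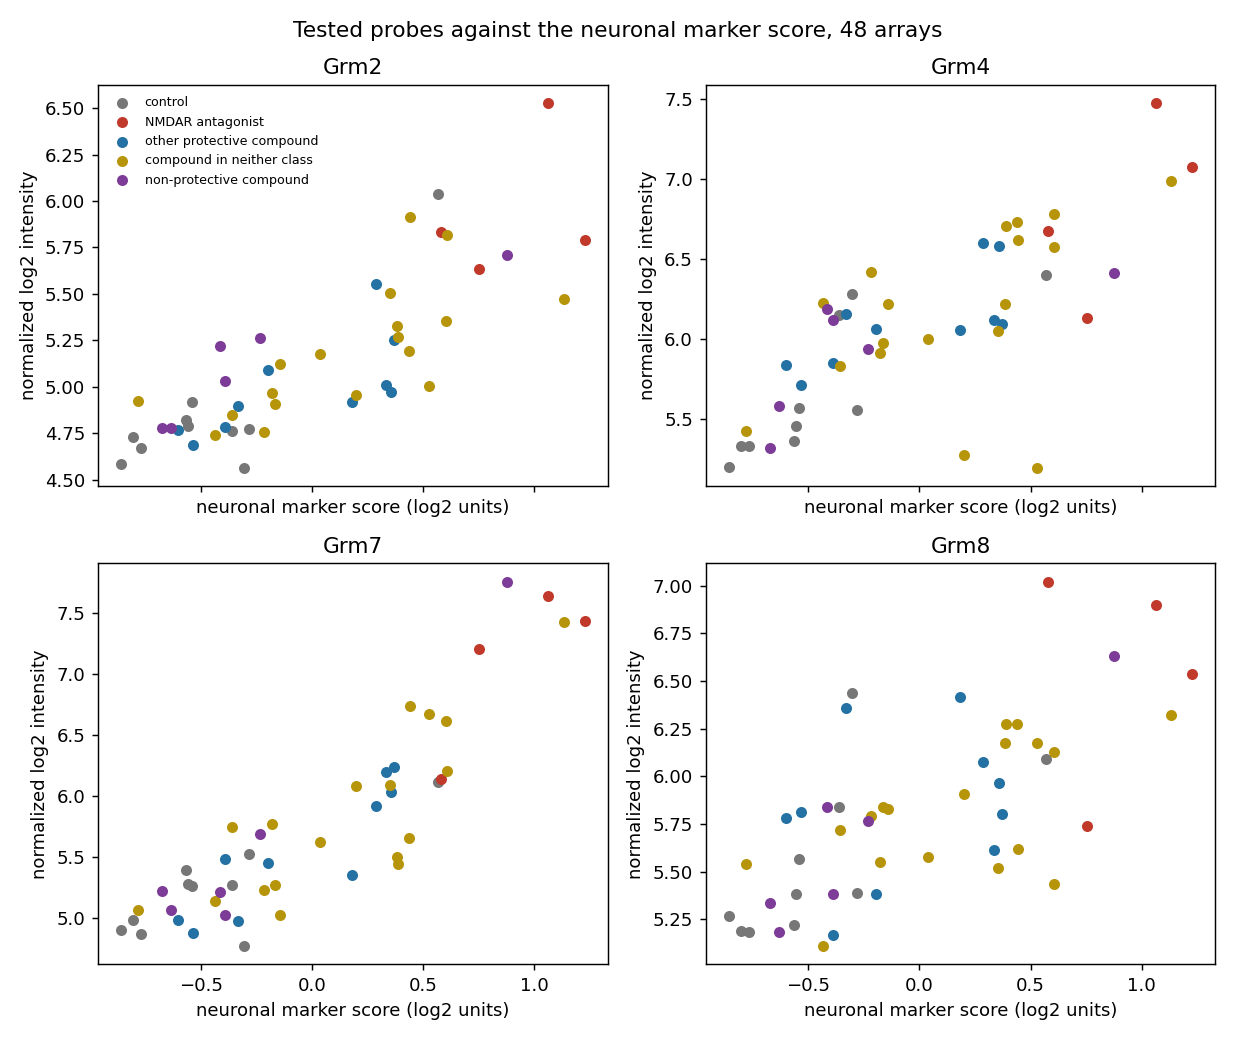
Normalized log2 intensity of the 4 tested probes against the neuronal marker score of the array, for 48 arrays coloured by group. The points rise together for each gene, most tightly for Grm7 (r = 0.89) and least for Grm8 (r = 0.69), and the antagonists lie at scores of 0.58 to 1.228.

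Among the receptors themselves, Grm2 with Grm7 gave the highest r, 0.78 (rho 0.80), and Grm7 with Grm8 the lowest, 0.50 (rho 0.40). The other 4 pairs had r between 0.57 and 0.72. The adjusted permutation p was at most 0.0003 for every r and at most 0.006 for every rho. Grm7 with Grm8 fell to 0.36 without the 2 most extreme arrays and was 0.63 after centring on chips. For 5 of the 6 pairs r was not below 0 on any of the 8 chips, and Grm4 with Grm8 had -0.11 on 1 chip.

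The genes most like each receptor over the 48 arrays, by Pearson's r with 1 probe per gene among 9869 genes, differed between receptors. For Grm7 they were Scn2a (r = 0.921), a voltage-gated sodium channel subunit, Syt1 (0.92), the calcium sensor of transmitter release, Stum, Diras2 and Cyria. Syt1 is also one of the 20 neuronal markers. For Grm4 they were Celsr3 (0.896), a cadherin of axon guidance, B4galnt4, Adgrl1, a latrophilin, Hs3st2 and Lrrc40. For Grm2 they were Pla2g4e (0.865), a phospholipase A2, Pde2a (0.853), a cyclic nucleotide phosphodiesterase, Sstr1, a somatostatin receptor, Sprn and Ccdc85a. For Grm8 they were Cpne4 (0.818) and Cpne6, copines that bind membranes with calcium, AW551984, Ccsap and Dpp10, a partner of potassium channels. These are descriptions over arrays that share a normalization.

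Genes that work with the receptors were followed in 5 lists, in the same comparison of antagonists with controls, in which 9.62% of all tested probes were called higher and 5.97% lower. Scaffolds and partners rose for 7 of 14 tested genes and fell for 0, with a median of 0.66. They included Ncdn (neurochondrin, 1.57, SE 0.255, adjusted p = 0.000167), Elfn2 (1.46), a transsynaptic partner of group III receptors, Gprasp1 (1.04), a sorting protein of G protein coupled receptors, and Dlg4 (1.23), which encodes PSD-95. The Gi/o pathway, through which all 4 measured receptors signal, rose for 6 of 13 and fell for 0, with a median of 0.61. Gnao1, the Go alpha subunit, rose by 1.06 (SE 0.233, adjusted p = 0.00162), Gng3 by 1.23, and the adenylyl cyclases Adcy2 and Adcy9 by 0.94 and 0.61.

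The Gq pathway of the group I receptors moved in both directions. Of 8 genes, Prkcb (0.99, adjusted p = 0.0208) and the channel gene Trpc1 (0.67, adjusted p = 0.0375) rose and the phospholipase gene Plcb3 fell (-0.43, adjusted p = 0.0418). Plcb1, at 0.59 (adjusted p = 0.0552), did not pass, and the median was 0.35. Regulators of receptors and G proteins rose for 3 of 13, namely Rgs7 (1.12), Rgs17 (1.27), both brakes on Gi/o signalling, and the arrestin gene Arrb1 (0.54), and fell for 0, with a median of 0.25. Rgs8 had 0.48 (adjusted p = 0.085). Of 3 genes for the peptide transmitter NAAG, an agonist of Grm3's receptor, the synthase gene Rimkla rose by 0.72 (adjusted p = 0.0207), while Slc17a5 (-0.44, adjusted p = 0.144) and the peptidase gene Folh1 (-0.25, adjusted p = 0.29) did not pass, and the median was -0.25. Against the median of all tested probes, -0.046, the first 4 lists lay higher and the last lower. Against the other protective compounds 4 of the 14 scaffold genes were higher with the antagonists and 0 genes of the other 4 lists were called, where 2.22% of all probes were called higher. With the compounds in neither class against controls, 2 of 14 scaffold genes, 3 of 13 Gi/o genes and 2 of 13 regulators were higher and 0 genes of the 5 lists lower, where 4.94% of probes were called higher and 9.63% in either direction. The other protective and the non-protective compounds gave 0 calls in the 5 lists, where 0.404% and 0.0168% of all probes were called in either direction.

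**Figure D5:**
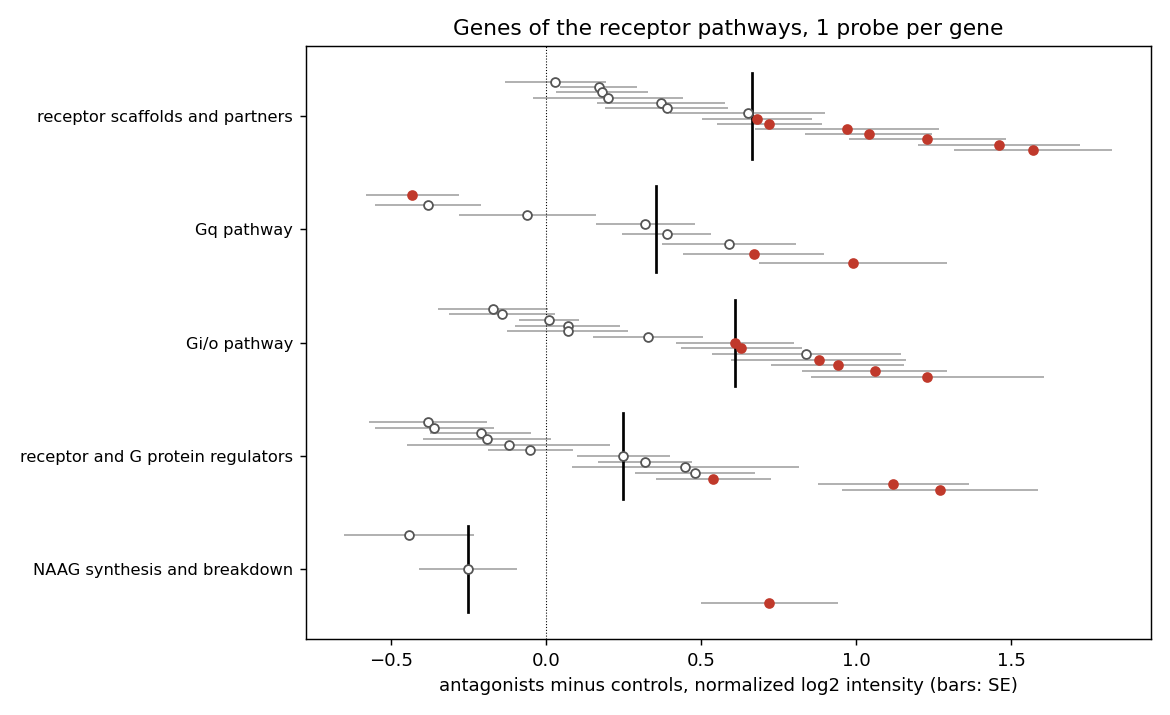
Antagonists minus controls for the tested genes of 5 receptor pathway lists, as differences in normalized log2 intensity with SE. Red points passed an adjusted p of 0.05 over all probes, white points did not, and the black bar is the median of a list. The lists of scaffolds (median 0.66) and of the Gi/o pathway (0.61) lie to the right of 0, with 7 and 6 red points, and the Gq list has red points on both sides.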

How the data were processed

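The deposited signals are average bead intensities per probe on a linear scale, exported by the authors with BeadStudio per the submitters' processing notes, with version and settings not given in the sources used here. Per the file headers each signal is paired with a detection p-value. The deposited series matrix holds the same intensity less 1 constant per array (32.3 to 111), with 8 values off by more than 0.1, and served as an alternative. Each column was matched to a sample, and 0 columns were left over.

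Signals were background corrected by normexp from the detection p-values (nec in limma 3.58.1, offset 16, R 4.3.3), quantile normalized and expressed as log2 intensity. Testing was limited to probes detected (p under 0.01) on at least 6 arrays. Symbols come from an old platform annotation, which names 1 gene for 29976 probes, several for 10 and none for 16646, and 0 were updated. Differences were fitted with lmFit and eBayes, 5 groups in 1 fit over 48 arrays, with Benjamini-Hochberg adjustment over the 17815 probes and a threshold of 0.05. The class, ratio, mechanism and control comparisons had fits of their own, with repeat arrays of a compound averaged for ratio and mechanism. An interval is the estimate ± 1.96 SE (95%). All tests are two-sided, and the fits were tested on simulated data. Intensities carry no read depth, and the number of arrays sets the precision. Permutations and figures used Python.

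All probes of the members are named, with up to 4 genes per pathway list by smallest p, the 5 genes most correlated with each member, and compounds outside the controls' range among the 3 highest or lowest. Nimodipine's Grm7 value, and the ratios of rolipram and benzamide, were picked after values were seen. The members and lists were chosen with earlier results of these data known. Alternatives covered the normalization, the detection filter, chip, position, solvent, the controls used and left-out arrays.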

Additional observations from a re-analysis of the deposited data

Results flagged for a closer look

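Of 20 sets of values (4 probes in each group of 4 to 10 arrays), 2 had an array far from the others by Dixon's criterion, where chance gives about 1 in 20. Grm2 was 6.04 in the vehicle control on chip 6, with the nearest vehicle control at 4.76, a gap of 0.866 of the group's range. Grm7 was 7.75 with 4-PPBP, with the nearest non-protective compound at 5.69, a gap of 0.757 of the range. Both arrays had high neuronal marker scores for their groups, 0.567 and 0.877; the part of this in the values was not tested.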

How the results depend on the processing

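In antagonists against controls all 4 members were called under 16 of 19 alternatives, 3 with median scaling, 3 with detection on at least 24 arrays and 2 with vehicle controls only. Grm2 (0.60 to 1.33) and Grm7 (1.27 to 2.43) kept direction and call throughout, though Grm2 was not tested when detection on 24 arrays was required. Grm4 lost its call with vehicle controls only, and Grm8 there and with median scaling (0.83, adjusted p = 0.0564). The 2777 probes called over the whole table became 426 with median scaling, 880 with position as a covariate, 4180 with only the groups compared and 1121 with vehicle controls only. They ranged from 1075 to 3314 with 1 antagonist left out, at 1261 without ifenprodil and 1075 without MK-801, and the members called were 4 each time (differences for Grm7 of 1.69 to 2.19).

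In antagonists against other protective compounds (484 probes, 2 members), the counts of probes were 56 with median scaling, 172 with median scaling over the tested probes, 244 without the detection filter, 1397 with chip as a block, 286 with position and 910 with solvent as a covariate. The members called were 1 under either median scaling, 1 with detection on at least 24 arrays, where Grm2 was not tested, and 4 with chip as a block. With 1 antagonist left out the probes ranged from 0 to 641, at 283 without riluzole, and the members from 0 to 3.

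For other protective compounds against controls (72 probes) the counts were 1 with median scaling, 39 with median scaling over the tested probes, 32 without the detection filter, 9 with position, 46 with solvent, 21 with mock controls only, 0 with vehicle controls only and 166 without the vehicle control on chip 6; 0 members were called under any of 15 alternatives. For non-protective compounds (3 probes) they were 1 with median scaling, 5 with detection on 24 arrays, 0 with position, 1 with only the groups compared, 0 with vehicle controls only and 5 without 4-PPBP. The Grm8 difference turned to -0.06 with vehicle controls only and to -0.05 without 4-PPBP.

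For compounds in neither class (1715 probes, 0 members) the counts were 104 with median scaling, 931 without the detection filter, 2993 with chip as a block, 7 with position, 743 with solvent, 969 with mock controls only, 18 with vehicle controls only and 2859 without the vehicle control on chip 6. In this comparison 1 member, Grm4, was called with median scaling over the tested probes, with chip as a block, without clofibric acid and with mock controls only, and 3 members without the vehicle control on chip 6.

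For the protective against the non-protective class (1363 probes, 1 member) the counts were 769 with median scaling, 251 without the detection filter, 406 with chip as a block, 0 with position, 0 without the 4 antagonists and 2718 without 4-PPBP. The members called were 0 under the first 5 of these and 3 under the last. The slope on the ratio for Grm2 turned to 0 with median scaling and to -0.11 without the antagonists, as did that of Grm7 (-0.11). The mechanism test gave 9 probes with chip as a block.

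For vehicle against mock controls (0 probes, 0 members) the counts were 4633 with chip as a block, with 1 member called, and 4292 with position, with 2 called. Both of these fits have the limits given for them in the results. With chip as a block Grm2 (-0.10), Grm4 (-0.08) and Grm8 (-0.11) turned. Grm7 turned to 0.04 with median scaling over the tested probes and to 0.11 with position. Leaving out 1 control gave 0 to 812 probes, at 812 without the vehicle control on chip 2 and 12 without the mock control on chip 5, with Grm2 between -0.09 and 0.27 and Grm7 between -0.30 and 0.04. With the replicate block 0 probes were called and Grm4 stood at 0.47; same-numbered controls did not deviate together (correlations of -0.142 to 0.148 over 5 pairs), so the numbers do not pair them.

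Median scaling over all probes moved the median difference of all tested probes to -0.27 in antagonists against controls, where 81.7% of calls were then higher in place of 61.7%. The shares of higher calls became 100% in place of 81.6% against other protective compounds, 0% in place of 91.7% for those against controls, 2.88% in place of 51.3% for neither class and 0.78% in place of 55.4% for the class label. Scaling on the tested probes, leaving out 4-PPBP and leaving out the vehicle control on chip 6 were chosen after seeing the data; the cause of these changes was not tested. Values near background limit Grm2 most.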
